A study of Mus musculus with 8 samples.

Results

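The histone genes of mouse cortical neurons were examined in a knockout of the gene for the H2B variant H2BE. The set holds the 64 rows of the deposited comparison whose symbols name a linker histone, an H2A, H2B, H3 or H4 gene, a macroH2A gene or Cenpa, of 26229 rows in all. Both groups were cultures of primary cortical neurons from E16.5 mouse embryos, grown for 12 days, with 4 libraries of polyadenylated RNA each. The first group carried the H2BE-KO/mCherry-KI genotype (KO) and the second was wild type (WT). The labels give neither the strain nor the part of the gene that the mCherry cassette replaced. Per the labels, libraries of a genotype are biological replicates. H2BE is encoded by H2bc21.

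Histones are the proteins around which DNA is wound, with pairs of H2A, H2B, H3 and H4 in the core of each nucleosome and a linker histone, H1, at its entry and exit. Most core histone genes lie in clusters in several near-identical copies, are transcribed when DNA is replicated, and end their mRNAs in a stem-loop rather than a poly(A) tail. Replication-independent variants such as H3.3, H2A.Z, macroH2A and H1.0 come from genes outside this system, have polyadenylated mRNAs, and supply histones to cells that no longer divide. H2BE was first described in olfactory sensory neurons. Since the libraries were made from polyadenylated RNA, the values for replication-dependent genes describe the polyadenylated part of their transcripts.

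The deposited values were the authors' own: a mean normalized count over all 8 libraries, a log2 fold change with its standard error (SE), and a p adjusted over all genes tested. The file has no values per library, so each group's mean was computed from the mean normalized count and the fold change for groups of equal size and is called implied here. Fold changes are given as KO over WT. The header names no direction, and it was read from H2bc21 itself, so that every direction would swap if that reading were wrong. An adjusted p was present for 32 of the 64 genes, called tested here. The other 32 had mean normalized counts of 0.121 to 2.75, with SEs of 1.23 to 6.12 on the log2 scale. Levels of different genes are compared only per kilobase (kb) of annotated exon.

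H2bc21 is told apart from the other H2B genes by its own sequence. Its coding sequence has 378 bases, and the 11 other H2B genes with a coding sequence of that length were 85.2% to 88.4% identical to it. The longest run of identical bases shared with any of them was 47. No stretch of 50 bases in the H2bc21 transcript occurred in an annotated transcript of another gene. The encoded residue differed from that of H2bc4 at 5 codons and from that of H2bc27 at 10 codons, and at 3 codons (4, 76 and 98, counted from the start codon as 1) it differed from all 11. The stretches around codons 76 and 98 are shown for H2bc21 and for the other H2B genes of highest level, H2bc4 and H2bc27, with the codon that differs in capitals, 5′ to 3′ on the coding strand. They were read from the GENCODE M21 transcripts and span bases 214 to 240 and 280 to 306 of each coding sequence.
H2bc21, codon 76: gagcgcatagcaAACgaggcttctcgc
H2bc4, codon 76: gagcgcatcgcgGGCgaggcgtcccgc
H2bc27, codon 76: gagcgcatcgccAGCgaggcctcccgc
H2bc21, codon 98: gagatccagacgTCGgtgcgccttcta
H2bc4, codon 98: gagatccagacgGCCgtgcgcctgctg
H2bc27, codon 98: gaggtgcagacgGCCgtgcgcctgctg

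The transcripts also differ in whether they carry the stem-loop of replication-dependent histone mRNAs. The pair of hairpins found most often within 100 bases after the coding sequences of these genes, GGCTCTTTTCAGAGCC in 19 genes and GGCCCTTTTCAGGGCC in 6, served as the search forms. Annotated transcripts were searched for both on the coding strand, allowing 2 mismatches over the 16 bases. A match was found in 37 of the 64 genes, 25 of them without a mismatch, and it began 24 to 57 bases after the coding sequence. Among protein-coding genes the share was 60.7% of the 61 histone genes and 0.206% of the 21890 others. The search forms came from these same histone genes, so a high share among them was built in. Of the 45 other genes with a match, 11 also have histone names in the annotation. H2bc21 had no match, its nearest stretch having 6 mismatches, and H2bc4 had none either, its nearest having 5. The 1 annotated transcript of H2bc4 is spliced from 2 exons. Sequence outside annotated exons was not searched, so a stem-loop in an unspliced form would be missed. The sequences below belong to genes described with the results, with the paired arms of the stem in capitals.
H2bc27: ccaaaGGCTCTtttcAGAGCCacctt
H2ac25: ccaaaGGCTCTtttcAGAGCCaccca
H2ac20: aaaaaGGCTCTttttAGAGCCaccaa
H1f2: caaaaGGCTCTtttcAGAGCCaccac
H4c8: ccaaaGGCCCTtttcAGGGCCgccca
H2ax: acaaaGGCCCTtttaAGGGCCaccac

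Of the 32 tested histone genes, 5 were higher and 2 lower in KO at a deposited adjusted p under 0.05, and 25 did not pass. The genes that passed were Macroh2a2, H2ac25, H1f0, H1f10 and H3f3a on the higher side and H2bc21 and H2ac20 on the lower side. These 7 are 21.9% of the histone genes tested, against 21.8% of all 18085 genes tested, so the share is that of the background. At an unadjusted p under 0.05 there were 10 of 32, against 33.0% of all tested genes. By direction the backgrounds were 11.0% higher and 10.9% lower. The median log2 fold change of the tested histone genes was -0.09, against -0.02 for all tested genes. By level, 4 of the 7 histone genes with a mean normalized count of 1000 or more passed, against 30.6% of all genes in that range, and 1 of the 16 under 100 passed, against 9.59%. H2bc21 is the gene that was targeted and the one from which the direction was read, so its sign is no check of the labels.

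**Figure D1:**
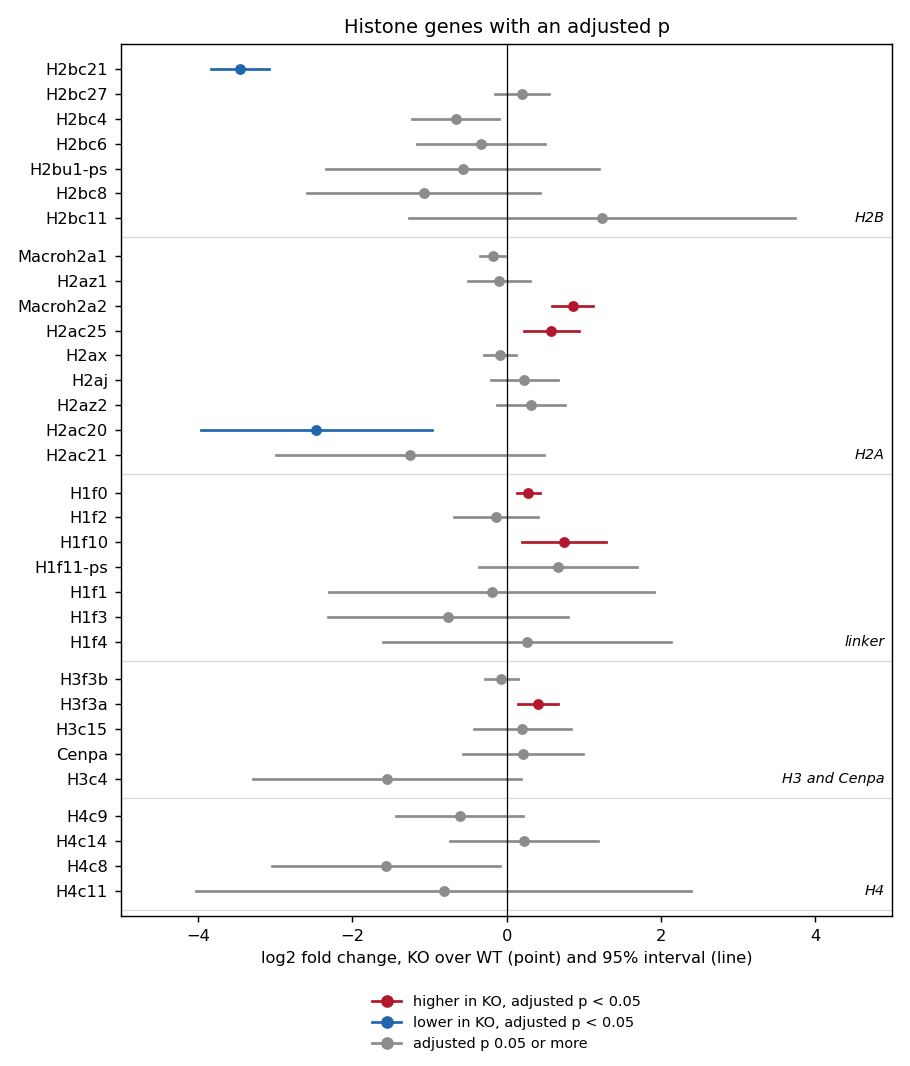
Log2 fold change of each of the 32 tested histone genes, KO over WT (horizontal axis), as points with 95% intervals, grouped by class from top to bottom and coloured by the deposited adjusted p. H2bc21 has the lowest value, -3.45, and the 5 genes higher in KO lie between 0.28 and 0.86.

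H2bc21 (ENSMUSG00000068854) is a single exon of 2620 bases at chr3:96221119-96223738 on the plus strand of GRCm38, the assembly that mm10 names. Its mean normalized count over all libraries was 1109 in the authors' deposited table, with implied means of 185 in KO and 2033 in WT. Its log2 fold change of -3.45 (SE 0.19, 95% confidence interval -3.83 to -3.08, adjusted p = 4.49e-68) left 9.12% of the WT level, and it had the smallest p of all genes tested. Whether the counts that remained in KO came from parts of the gene outside the replaced stretch was not tested.

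None of the 6 other tested H2B genes passed the threshold, and 1 of them, H2bc4, had an unadjusted p under 0.05. Such a p was found for 33.0% of all tested genes. H2bc4, a gene of the large chromosome 13 cluster, had a mean normalized count of 712 and implied means of 552 in KO and 873 in WT. Its log2 fold change of -0.66 (SE 0.29, 95% confidence interval -1.23 to -0.10) gave 0.0835 as adjusted p, by the authors' deposited table. H2bc27, of a small chromosome 11 cluster, had a mean normalized count of 863 and implied means of 924 in KO and 802 in WT, with a log2 fold change of 0.20 (SE 0.18, 95% confidence interval -0.14 to 0.55). Of the stretches of 50 bases of these genes, 30.6% for H2bc4 and 22.1% for H2bc27 also occur in transcripts of other genes, which makes their counts less certain than that of H2bc21.

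H2bc6 followed at a mean normalized count of 112 and a log2 fold change of -0.33 (SE 0.42). The pseudogene H2bu1-ps had a count of 8.45 and a log2 fold change of -0.57 (SE 0.90), H2bc8 a count of 4.22 and -1.07 (SE 0.77), and H2bc11 a count of 3.00 and 1.23 (SE 1.27). The errors of these 3 low genes could not show a change of 1 on the log2 scale. Of the 6 untested H2B genes, 5 had a fold change below 0 and 1 was at 0, and the highest count was the 1.35 of H2bc3. The median log2 fold change over the 6 tested H2B genes other than H2bc21 was -0.45.

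Per kb of exon, 3 genes made up nearly all of the polyadenylated H2B transcripts in both genotypes. H2bc21 had 70.8 normalized counts per kb in KO and 776 in WT, H2bc27 had 1505 in KO and 1307 in WT, and H2bc4 had 477 in KO and 755 in WT. Summed over the 12 H2B genes, the pseudogene left out, the level was 2095 per kb in KO and 2890 in WT. The sum thus fell by 27.5% in KO, and its ratio of 0.725 ran from 0.629 to 0.831 when H2bc27 was set to the bounds of its interval. Without H2bc21, the sum over the other 11 genes was 2024 per kb in KO and 2113 in WT, a ratio of 0.958. Counts not divided by length gave a sum of 1770 in KO and 3846 in WT, a ratio of 0.460, so the size of the fall depends on the lengths used. H2bc21 supplied 3.38% of the H2B level in KO and 26.9% in WT, H2bc27 supplied 71.9% in KO and 45.2% in WT, and H2bc4 supplied 22.8% in KO and 26.1% in WT. These shares carry no test. The transcript of H2bc27 is annotated with 614 bases, which raises its level per kb; without division by length H2bc21 supplied 10.5% in KO and 52.9% in WT.

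**Figure D2:**
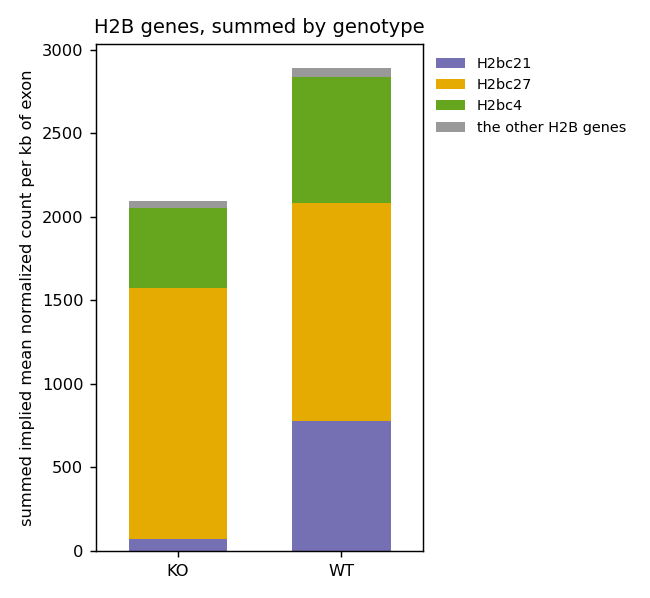
Summed implied mean normalized count per kb of exon (vertical axis) of the 12 H2B genes in KO (left) and WT (right), split into H2bc21, H2bc27, H2bc4 and the others. The bar is 2095 in KO and 2890 in WT; the H2bc21 segment is 70.8 in KO and 776 in WT, and there are no error bars because values per library were not in the file.

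H2bc21 lies in a small cluster of histone genes on chromosome 3. H2ac20, an H2A gene at chr3:96220361-96220880 on the minus strand, begins 238 bases from H2bc21 and is read away from it. It fell in KO with a log2 fold change of -2.47 (SE 0.76, 95% confidence interval -3.97 to -0.97, adjusted p = 0.00907) in the authors' deposited table. This rests on few reads: the mean normalized count was 10.7, with implied means of 3.28 in KO and 18.2 in WT, and 55.0% of its stretches of 50 bases also occur in transcripts of other genes. H2ac21, an H2A gene whose end lies 810 bases before H2bc21, had a mean normalized count of 8.36 and its log2 fold change was -1.25 (SE 0.88, adjusted p = 0.333), with 64.8% of its stretches shared.

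The 2 remaining genes of the cluster lie farther off on the other side of H2bc21. H3c15, an H3 gene 14369 bases away, had a mean normalized count of 69.5 and a log2 fold change of 0.20 (SE 0.32). H4c14, an H4 gene 37943 bases away, had 26.7 and 0.23 (SE 0.49). In this cluster the 3 genes with a fold change below 0 were H2bc21 and the H2A genes just before its start, of which H2ac20 passed. Genes outside the histone set also lie near H2bc21. Bola1, 1409 bases before it, had a mean normalized count of 216 and a log2 fold change of 0.26 (SE 0.30). Sv2a, 25597 bases before H2bc21, had a count of 30053 and was lower in KO. Its log2 fold change was -0.30 (SE 0.09, adjusted p = 0.00893) in the authors' deposited table. Whether the cassette itself altered H2ac20, H2ac21 or Sv2a was not tested.

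Among H2A genes, 9 of 17 were tested, 2 were higher and 1 was lower in KO, against 11.0% higher and 10.9% lower of all tested genes, and the median log2 fold change was -0.08. Macroh2a2, which encodes the macroH2A2 variant with its large macro domain, rose with the smallest p of any histone gene after H2bc21. Its mean normalized count was 2407 in the authors' deposited table, with implied means of 3102 in KO and 1712 in WT. The log2 fold change was 0.86 (SE 0.13, 95% confidence interval 0.59 to 1.12, adjusted p = 1.74e-08), and the gene lies at chr10:61738665-61784147 on the minus strand. It shares 233 exonic bases with Aifm2 on the opposite strand, which had a count of 234 and a log2 fold change of -0.21 (SE 0.21). Its paralog Macroh2a1, which encodes macroH2A1, had a mean normalized count of 2524 and a log2 fold change of -0.18 (SE 0.08, 95% confidence interval -0.34 to -0.02, adjusted p = 0.104). The intervals of the paralogs do not overlap, but the difference between the genes was not tested. Macroh2a2 supplied 31.9% of the H2A level per kb in KO and 20.6% in WT. This share was not tested and depends on the lengths used. All annotated exons of Macroh2a1 cover 6809 bases and its longest transcript 4018, against 2175 for Macroh2a2 by either measure.

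H2ac25, the H2A gene of the chromosome 11 cluster that also holds H2bc27, rose in KO. Its mean normalized count was 842, with implied means of 1009 in KO and 675 in WT and a log2 fold change of 0.58 (SE 0.18, 95% confidence interval 0.22 to 0.94, adjusted p = 0.0107). It lies at chr11:58954685-58956830 within Trim17 on the same strand and shares 708 exonic bases with it, and 31.5% of its stretches of 50 bases occur elsewhere, so its count is uncertain. Trim17, a tripartite motif family gene, had a log2 fold change of -0.07 (SE 0.20) at a count of 270.

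The other H2A variants did not pass in the authors' deposited table. H2az1, a gene for H2A.Z, had a mean normalized count of 2432 and a log2 fold change of -0.10 (SE 0.21), with 35.4% of its stretches shared with other genes, and H2az2, the other H2A.Z gene, had 230 and 0.32 (SE 0.23). H2ax, whose protein is phosphorylated at DNA breaks, had 712 and -0.08 (SE 0.11). H2aj had 367 and 0.23 (SE 0.22). The 8 untested H2A genes had counts up to the 1.88 of H2ac6, with 2 above and 6 below 0.

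Linker histone genes were tested in 7 of 10 cases, and 2 were higher in KO, or 28.6%, against 11.0% higher and 21.8% called of all tested genes. H1f0 encodes H1.0, the linker histone that accumulates in differentiated, non-dividing cells. It had a mean normalized count of 2649 in the authors' deposited table, with implied means of 2909 in KO and 2390 in WT, and a log2 fold change of 0.28 (SE 0.08, 95% confidence interval 0.13 to 0.43, adjusted p = 0.00249). H1f0 lies at chr15:79028450-79030504. H1f10, which encodes the variant H1.10 and lies at chr6:87980421-87981637, had a mean normalized count of 241, implied means of 302 in KO and 180 in WT, and a log2 fold change of 0.75 (SE 0.28, 95% confidence interval 0.21 to 1.29, adjusted p = 0.0350). An antisense gene, Gm5577, overlaps 213 exonic bases of H1f10 and had a count of 20.0 and a log2 fold change of 0.70 (SE 0.47). H1f0 and H1f10 are replication-independent variants.

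The replication-dependent linker genes did not pass. H1f2 had a mean normalized count of 887 and its log2 fold change was -0.13 (SE 0.28, adjusted p = 0.787). H1f1 had 10.1 and -0.19 (SE 1.08), H1f3 had 9.33 and -0.76 (SE 0.80), and H1f4 had 8.68 and 0.27 (SE 0.95) in the authors' deposited table. H1f4 shares 496 exonic bases with H2bc6 on the same strand, which makes both counts uncertain. The pseudogene H1f11-ps had 28.0 and 0.67 (SE 0.52). The 3 untested linker genes reached at most the 1.68 of H1f8.

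H3.3 is encoded by a pair of genes that make the same protein, and they differed in whether they passed. H3f3b was the most abundant histone gene, with a mean normalized count of 10125, implied means of 9891 in KO and 10359 in WT, and a log2 fold change of -0.07 (SE 0.11, 95% confidence interval -0.28 to 0.15, adjusted p = 0.719). H3f3a, at chr1:180800832-180813943, had 2576, implied means of 2938 in KO and 2214 in WT, and a log2 fold change of 0.41 (SE 0.13, 95% confidence interval 0.14 to 0.67, adjusted p = 0.0160) in the authors' deposited table. The difference between these genes was not tested, and their intervals overlap narrowly. Per kb, H3f3b supplied 78.1% of the H3 level in KO and 82.8% in WT, and H3f3a supplied 19.7% in KO and 15.0% in WT. Shares of the H3 level were not tested and depend on the exon lengths used. Of the stretches of 50 bases of H3f3a, 27.1% also occur in transcripts of other genes. The antisense gene H3f3aos, which overlaps 160 exonic bases of H3f3a, had a count of 21.8 and a log2 fold change of -0.64 (SE 0.59). Gm17275, also on the opposite strand, overlaps 638 exonic bases and had a count of 16.2 and 0.69 (SE 0.53). Neither passed. The kit keeps strand, but whether counting used it is not given in the sources used here.

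Cenpa, which encodes the centromeric H3 variant loaded in dividing cells, had a mean normalized count of 49.2 and a log2 fold change of 0.21 (SE 0.40) in the authors' deposited table. H3c4, the remaining tested H3 gene beside H3c15, had 5.30 and -1.55 (SE 0.88, adjusted p = 0.212). The 8 untested genes of this class reached at most the 1.93 of H3f4, typed as a pseudogene in the annotation used, with 5 above and 3 below 0. H3c15, the replication-dependent H3 gene of highest level, supplied 1.71% of the H3 level per kb in KO and 1.51% in WT.

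All H4 genes of the set are replication-dependent, and their signal was low throughout. None of the 4 tested H4 genes passed by DESeq2, and 1 had an unadjusted p under 0.05, against 33.0% of all tested genes. That was H4c8, with a mean normalized count of 20.7, implied means of 10.5 in KO and 31.0 in WT, and its log2 fold change was -1.57 (SE 0.75, adjusted p = 0.123) in the authors' deposited table. H4c9 had 36.1 and -0.61 (SE 0.42), and H4c11 had 3.29 and -0.81 (SE 1.64). Of the 7 untested H4 genes, 5 lay below 0, 1 above and 1 at 0, and H4c1 had the highest count at 2.75. H4c1 and H4c17 had unadjusted p values of 0.018 and 0.0455 for a lower level in KO, at counts of 2.75 and 1.10. Among all rows without an adjusted p, 1.33% had an unadjusted p under 0.05.

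**Figure D3:**
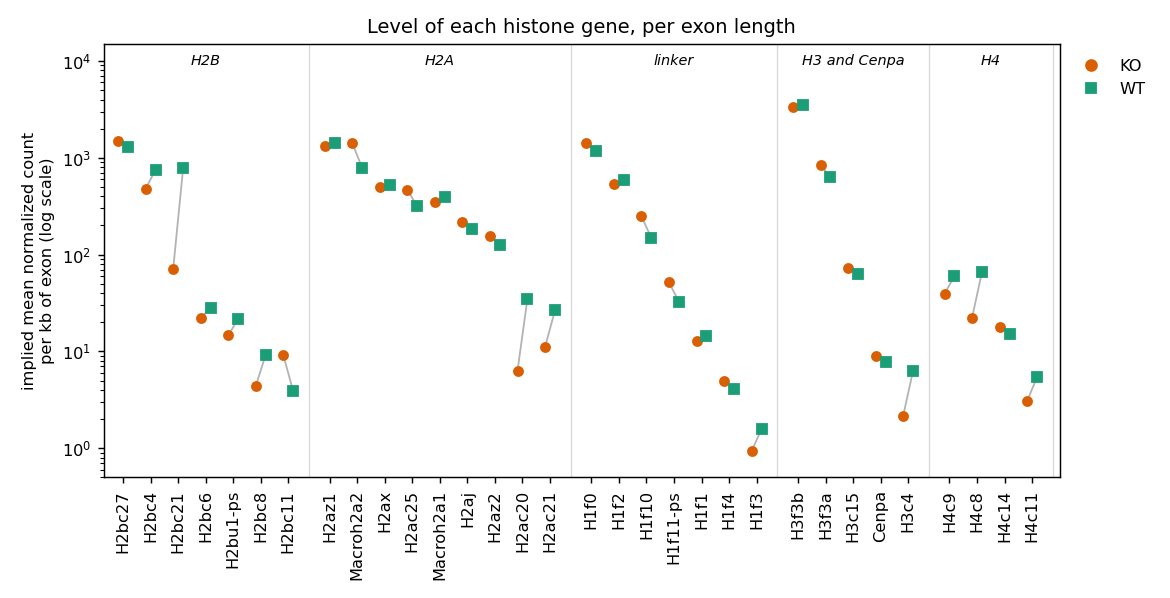
Implied mean normalized count per kb of exon (vertical axis, log scale) of each tested histone gene in KO (orange circles) and WT (green squares), ordered by level within class; lines join the genotypes of a gene. H3f3b is highest at 3324 in KO and 3481 in WT, and H2bc21 has the widest gap among genes above 100 per kb in WT.

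Grouped by replication status, all 11 replication-independent variants were tested and 4 passed, all higher in KO: Macroh2a2, H3f3a, H1f0 and H1f10. That is 36.4%, against 21.8% of all tested genes and 30.6% of those with a mean normalized count of 1000 or more, and 11.0% higher in KO among all. Their median log2 fold change was 0.23, with a range of -0.18 to 0.86. Of the 45 replication-dependent genes, H2bc21 set apart, 18 were tested, of which 1 was higher (H2ac25) and 1 lower (H2ac20). That is 11.1%, against 21.8% of all tested genes and 9.59% of those with a mean normalized count under 100. The median of these 18 was -0.47. Of the 18, 6 lay above and 12 below 0, against 8645 above and 9439 below among all 18085 tested genes. The 12 tested genes of the chromosome 13 cluster, the main replication-dependent cluster, gave no call by DESeq2. Of these 12, 10 lay below 0. An unadjusted p under 0.05 was found for 2 of them (H2bc4 and H4c8), against 33.0% of all tested genes. The median log2 fold change of the 12 was -0.64, at a median mean normalized count of only 9.72. The groups differ in depth, with median mean normalized counts of 2407 for the variants and 15.7 for the 18 replication-dependent genes, and the difference between the groups was not tested. The 4 genes expressed mainly in the germline were not tested, and neither of the 2 tested pseudogenes passed, both with unadjusted p values above 0.05.

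The level of histone genes can be set beside what their annotated transcripts hold past the stem-loop. H2bc21 lies in a cluster of replication-dependent genes but is known as a variant and held no match, so it is kept apart, at 70.8 normalized counts per kb in KO and 776 in WT. Of the replication-dependent genes, 2 had no match and a transcript that goes on past the stop codon. H2bc4 had 477 per kb in KO and 755 in WT, and H1f1 had 12.7 in KO and 14.6 in WT. Over all libraries together, the other groups compare as follows. The 20 genes whose transcript runs 100 bases or more past the match had a median of 4.37 per kb, with a range of 0.399 to 1406. The 15 genes with less than 100 bases past it had a median of 2.04 and none above 44.1, and the 8 genes whose transcript ends near the stop codon had a median of 1.13 and none above 18.8. The replication-dependent genes above 100 per kb over all libraries were H2bc4 and 3 genes that ran on past the match. H2bc4 had no match in its spliced annotated transcript, the only form searched. H2bc27 ended 169 bases, H1f2 840 bases and H2ac25 1643 bases after the match. Among the 11 replication-independent variants, H2ax alone held a match, and its transcript goes on for 822 bases. These are descriptions of annotated transcripts, and the 3′ ends used in these neurons were not measured.

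**Figure D4:**
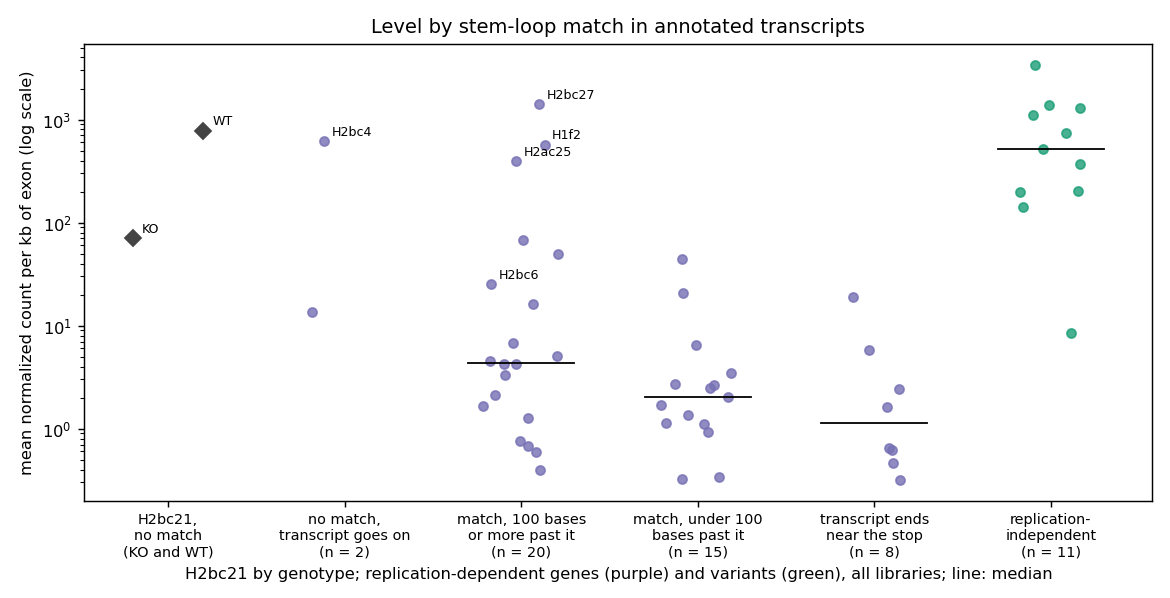
Normalized count per kb of exon (vertical axis, log scale) of H2bc21 in KO and WT (diamonds), and, as means over all libraries, of replication-dependent genes split by the stem-loop match in their annotated transcripts (purple) and of replication-independent variants (green); lines are medians of groups of more than 2. H2bc21 is at 70.8 in KO and 776 in WT, and H2bc27, H1f2 and H2ac25 lie at the top of the column whose transcripts run 100 bases or more past the match.

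Genes that make and handle histones were counted in the same way, against a background of 21.8% called, 11.0% higher and 10.9% lower. Of 17 genes for the synthesis and 3′ processing of histone mRNA, 1 passed: Eri1, an exonuclease that trims the end of histone mRNA, was higher in KO at 0.38 on the log2 scale (SE 0.11, adjusted p = 0.00645). That is 5.88%, against 21.8% of all tested genes, and the list's median was 0.05. Slbp, which binds the stem-loop, had -0.27 (SE 0.11, adjusted p = 0.0667) in the authors' deposited table. Of 27 genes for histone chaperones and loaders, 4 were lower and 1 higher in KO, which is 18.5% and near the 21.8% of all tested genes, and the median was 0.04. The lower ones were Nap1l5, of the NAP family of H2A-H2B chaperones, at -0.998 (SE 0.21, adjusted p = 5.44e-05), Asf1a, an H3-H4 chaperone, at -0.71 (SE 0.19, adjusted p = 0.00174), Anp32e, which removes H2A.Z, at -0.34 (SE 0.09, adjusted p = 0.00242), and Ubn1, of the complex that deposits H3.3, at -0.31 (SE 0.11, adjusted p = 0.0189). The higher one was Atrx, which works with Daxx in loading H3.3, at 0.35 (SE 0.12, adjusted p = 0.0231).

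S phase and cell division genes were measured because replication-dependent histone genes are transcribed in S phase. Of 32 such genes, 3 were higher and 1 lower in KO, with a median of 0.11 and mean normalized counts of 3.55 to 1538. Rrm2, the small subunit of ribonucleotide reductase, rose by 1.73 on the log2 scale (SE 0.24, adjusted p = 2.31e-10) in the authors' deposited table. Mcm7, a subunit of the replicative helicase, was at 0.59 (SE 0.17, adjusted p = 0.00314), and E2f1, a transcription factor of the cell cycle, at 0.64 (SE 0.23, adjusted p = 0.0309). Pola1, the catalytic subunit of DNA polymerase alpha, was lower at -0.46 (SE 0.16, adjusted p = 0.0258). The share of calls, 12.5%, was below the 21.8% of all tested genes, and the difference was not tested. Depth bears on it, since the median mean normalized count of these genes was 81.7. Among all tested genes, 9.59% of those under a count of 100 were called, and 26.1% of those at 100 to 1000.

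The cultures carried the markers of their label: the 11 neuronal markers had mean normalized counts of 2271 to 90482, of which 4 were higher and 2 lower in KO, or 54.5% against 21.8% of all tested genes. Of the markers of excitatory neurons, Slc17a7 (0.75, SE 0.24) and Neurod6 (0.88, SE 0.27) were higher in KO on the log2 scale and Slc17a6 was at 0.17 (SE 0.33). Of those of inhibitory neurons, Gad1 was lower (-1.02, SE 0.29) and Gad2 was at -1.18 (SE 0.49, adjusted p = 0.0643). Markers of other cells were detected too. All 8 astrocyte markers had fold changes above 0, against 8645 of all 18085 tested genes. Of the 8, 2 passed, or 25%, near the 21.8% of all tested genes. The summed implied level of the 8 was 20493 in KO and 10531 in WT, with Slc1a2 carrying most of the sum. The 8 microglia markers summed to 49.8 in KO and 149 in WT, with 3 lower. Neural progenitor markers summed to 3118 in KO and 3205 in WT, with Vim carrying most of the sum at -0.32 (SE 0.27). Of the 7, 5 lay above 0, and the median log2 fold change of all 7 was 0.69. Hes1 (2.17, SE 0.39) and Eomes (2.52, SE 0.89) were higher, or 28.6% against 21.8% of all tested genes. The oligodendrocyte lineage markers summed to 1863 in KO and 1579 in WT, with 1 of 7 tested higher, or 14.3%. Their part in the differences of the histone genes was not tested. In bulk RNA, a change in the share of a cell type and a change of RNA per cell cannot be told apart.

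The calls depend on the distribution that the Wald statistics are read against, and on the threshold. No setting could estimate the spread between libraries anew, since values per library were lacking. The fitted null takes its scale from all tested genes, any changed ones among them. When the Wald statistics were read against a t distribution (6 degrees of freedom) in place of the normal one, H2bc21 was the only histone gene called (adjusted p = 0.0344) and the only one of all 18085, a background of 0.00553%. With a null distribution fitted to all Wald statistics, H2bc21 was again the only histone gene called (adjusted p = 1.00e-15), against a background of 0.464%, and Macroh2a2 had an adjusted p of 0.093. By other choices of threshold and adjustment 4 histone genes passed at 0.01 (background 13.9%), 8 at 0.1 (28.0%), 6 with the adjustment taken over every row with a p (13.5%) and 7 among genes with a mean normalized count of 10 or more (25.9%).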

How the data were processed

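Polyadenylated RNA of 8 libraries, 4 KO and 4 WT, was prepared with a strand-keeping kit per the labels. DESeq2 and DESeq and the build mm10 are named in the submitters' processing notes without versions; no source used here gives the aligner, the counter or the annotation. The authors deposited 1 comparison table. Its signal, per the file headers, is the normalized count averaged across libraries. The log2 fold change and its SE, a Wald score, and the p-value with its adjusted p-value are also as deposited by the authors. The score equalled fold change over SE (largest gap 2.86e-07), and the adjusted p was the Benjamini-Hochberg adjustment over the 18085 tested genes, within 0.757%.

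The sign was turned to KO over WT by the targeted gene. No count model was run, since the file holds no values per library; depth per library is unknown, and mean normalized counts summed to 3.96e+07. Intervals are the fold change with a 95% normal interval. Genes were matched by identifier to GENCODE M21 on GRCm38, which gave exon lengths, overlaps and transcript sequences for all 64 histone genes. Stem-loops and shared stretches of 50 bases were searched with Python 3.11.15. Every tested histone gene is named, as are up to 4 called genes of each list of histone-related genes. Slbp, Atrx, Trim17, Aifm2, Gm5577, H3f3aos, Gm17275, Bola1 and Sv2a were named after their values were seen. Members, lists and tests were chosen with earlier results of these data known. Replication status follows textbook classes, with H2bc21 kept apart, and pseudogenes are those typed so in GENCODE M21. The counting of calls was tested on simulated data.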

Additional observations from a re-analysis of the deposited data

How the results depend on the processing

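The calls of the deposited table were recounted under 6 alternatives, none of which can restore values per library. No paired analysis was possible because the deposited table holds no values per library; leaving out single libraries was not possible for the same reason. The histone genes called, 7 in all, were 4 at an adjusted p under 0.01, 1 against a t distribution (6 degrees of freedom) and 1 with a null fitted to all Wald statistics (centre -0.10, scale 1.95). Under both of these last settings the H2A, linker, H3 and Cenpa, histone mRNA and chaperone lists each had 0 calls, and S phase genes had 0 and 1. At 0.01 the calls were 1 for linker genes, 0 for H3 and Cenpa, 2 for S phase genes and 3 for chaperones. At 0.1, H2B genes other than H2bc21 had 1 call (H2bc4) and histone mRNA genes 5. Adjusting over every row with a p left 1 linker call, with H1f10 at 0.0505. H2bc21 was called under all 6 alternatives. They kept the deposited fold changes and altered only the p, its threshold or the genes included, so they could not test direction. Background calls were 0.00553% with the t distribution, 0.464% with the fitted null, 13.9% at 0.01 and 28.0% at 0.1. The share of H2bc21 in the H2B level without length was 10.5% in KO and 52.9% in WT, with a total ratio of 0.460. Depth limits the genes under a mean normalized count of 100, where 15 of 16 did not pass.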
